A study of Mus musculus with 20 samples.

Results

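The genes of fatty acid oxidation and of ketone body handling were examined in kidney and liver of mice given JQ1, a small molecule that displaces bromodomain and extraterminal (BET) proteins from acetylated chromatin. The set comprised 39 of the 55642 genes quantified, a list of gene symbols drawn up with earlier results of these data known, and all 39 were found in the files. They were read by step: 3 regulators and secreted targets, 2 genes of uptake and binding, 4 of mitochondrial entry, 7 of the mitochondrial spiral, 3 auxiliary enzymes for unsaturated chains, 3 electron transfer flavoproteins, 8 peroxisomal genes, 1 ketone body enzyme, 1 kinase of the pyruvate switch, 4 thioesterases, 2 genes of lipid droplets and lipolysis, and 1 pantetheinase.

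The samples were bulk RNA-seq libraries of polyadenylated RNA from male DBA/2J mice, an inbred strain. JQ1 (50 mg/kg) or its vehicle was injected daily for 3 weeks. In each organ there were 3 JQ1 treatment libraries (mice 10 weeks old, taken at the end of dosing), 3 JQ1 recovery libraries (16 weeks old, 6 weeks after the last dose), 3 vehicle treatment libraries (10 weeks old) and 1 vehicle recovery library (16 weeks old). The 4 vehicle libraries of an organ formed 1 control group, so treatment and age are not separated in the recovery comparison, which rests on 1 vehicle library of matching age. A legend in the study's supplement reverses how many vehicle libraries belong to each time and shortens the recovery. The RNA-seq methods of that supplement count the vehicle libraries as the labels do. The ages of vehicle libraries and the recovery time printed here hold only as far as the labels do. Nothing in the labels states that every library came from a different mouse, and the p-values therefore measure the spread between these libraries.

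Fatty acids enter mitochondria as carnitine esters through carnitine palmitoyltransferases and the carnitine carrier, and are shortened in the beta-oxidation spiral, whose electrons pass through the electron transfer flavoproteins. Peroxisomes shorten very long and branched chains first. The nuclear receptor PPARA switches many of these genes on in fasting, and liver turns the resulting acetyl-CoA into ketone bodies, which kidney and other organs burn. The proximal tubule of the kidney relies on fatty acid oxidation for most of its energy.

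Kidney libraries held 13952510 to 26895318 estimated reads and liver libraries 11968500 to 17529910, so that even the lowest member tested in kidney, Pdk4, was counted in every library. Levels are given as CPM, counts scaled to the library total and by the trimmed mean of M values (TMM) within an organ, for comparison between groups, and as TPM, which also accounts for transcript length, for comparison between genes or organs. In bulk tissue, fewer cells of a type and less RNA per cell cannot be told apart. Some libraries stood apart. Liver JQ1 recovery replicates 2 and 3 carried kidney transcripts: 14 kidney genes stood at a median of 36.9% and 12.3% of their mean kidney level, against 0.0662% in replicate 1. Kidney JQ1 treatment replicate 1 had the highest summed level of 14 adipocyte markers, 1248 CPM, against 146 to 624 CPM in the other 9 kidneys, and the highest of 8 fibroblast markers, 985 CPM against 162 to 293 CPM. Where a call changes without these libraries, that is given beside it.

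After 3 weeks of JQ1, of 38 members tested in kidney against vehicle, 4 rose (Angptl4, Eci1, Acadl and Mgll) and 1 fell (Phyh), at an adjusted p below 0.05 in edgeR's quasi-likelihood test with Benjamini-Hochberg adjustment over all 17158 genes tested. In that comparison 4.13% of all genes tested were called, 1.4% higher and 2.73% lower. The fold change was above 0 for 29 members and below 0 for 9, with a median log2 fold change of 0.12, against -0.0068 over all genes and 48.9% of all genes above 0. JQ1 treatment and vehicle kidneys did not overlap for 14 members, 11 of them higher and 3 lower, where 6.85% of all genes were higher and 8.31% lower without overlap. Without JQ1 treatment replicate 1, the library with the most adipocyte and fibroblast RNA, Angptl4, Eci1, Acadl and Acot1 were called higher and Phyh lower, where 2.79% of all genes tested in that fit were called. All 6 red cell markers were also above 0 in this comparison (3 called, summed 9363 to 12969 CPM in JQ1 treatment kidneys and 4615 to 8030.2 CPM in vehicle kidneys), and their part in these values was not tested. The plot of CPM by group shows the 8 members with the lowest p in this comparison.

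**Figure D1:**
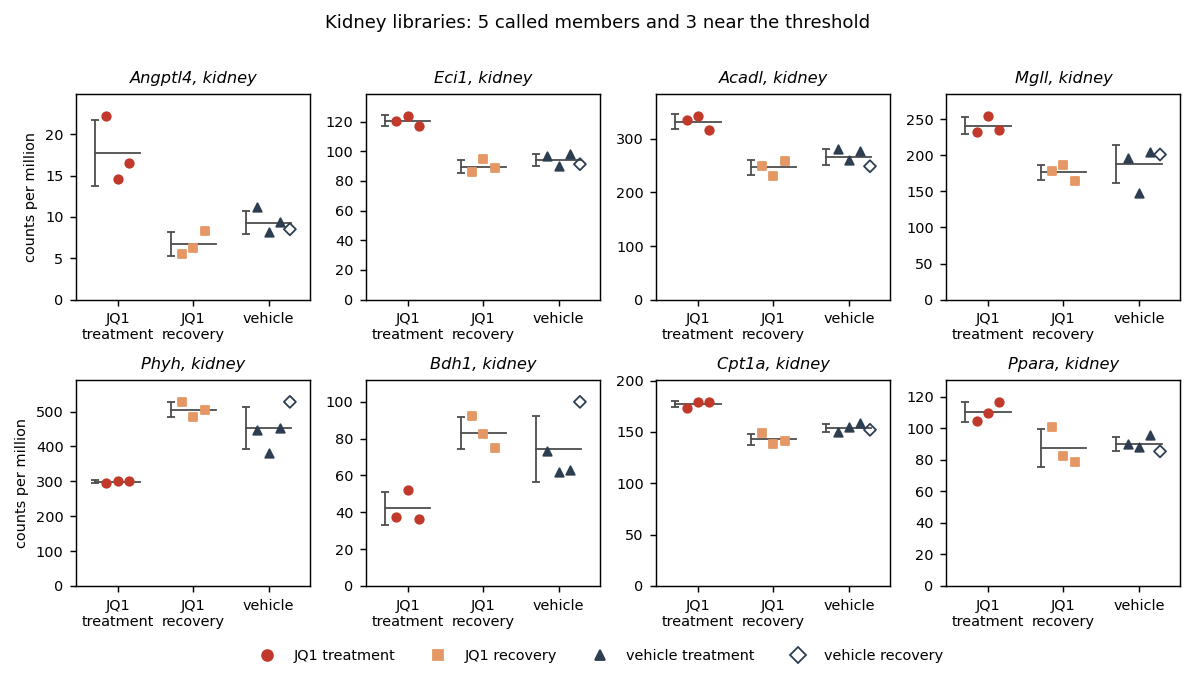
CPM (linear axis from 0) of Angptl4, Eci1, Acadl, Mgll, Phyh, Bdh1, Cpt1a and Ppara in every kidney library, by group from left to right JQ1 treatment, JQ1 recovery and vehicle. Points are libraries (the open diamond is the vehicle recovery library), lines are group means and bars are SD. In all 8 panels the 3 JQ1 treatment libraries lie outside the range of the 4 vehicle libraries, above it in 6 panels and below it for Phyh and Bdh1.

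Angptl4 encodes a secreted inhibitor of lipoprotein lipase and is a classical PPARA target (chr17:33773750-33781830, minus strand, GRCm38). It stood at 22.3, 14.6 and 16.5 CPM in JQ1 treatment kidneys, against 11.2, 8.19 and 9.34 CPM in vehicle treatment kidneys and 8.51 CPM in the vehicle recovery kidney. The 3 JQ1 treatment kidneys were all above the 4 vehicle kidneys, and replicate 1 was the highest. The difference was 1.9-fold, the largest rise of any member (log2 fold change 0.93 ± 0.17 SE, adjusted p = 0.00247). Angptl4 is also expressed by adipocytes. The 14 adipocyte markers gave 10 log2 fold changes above 0 and 0 calls in this comparison, at summed levels of 146 to 1248 CPM in JQ1 treatment kidneys and 201 to 624 CPM in vehicle kidneys. Without replicate 1, the library with the most adipocyte RNA, Angptl4 remained higher by 0.74 on the log2 scale (adjusted p = 0.0153).

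Ppara itself was not called. It stood at 104, 109.8 and 117 CPM in JQ1 treatment kidneys, against 90.3, 88.1 and 95.9 CPM in vehicle treatment kidneys and 85.3 CPM in the vehicle recovery kidney, without overlap, and the log2 fold change of 0.29 ± 0.08 did not pass the test (adjusted p = 0.0567). With DESeq2 size factors in place of TMM the adjusted p was 0.0493. Fgf21, the fasting hormone of the liver, had reads in only 1 of the 10 kidney libraries, a vehicle treatment library at 0.0454 CPM, and was not tested in kidney.

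For mitochondrial entry, all 4 genes had log2 fold changes above 0 (median 0.13) and 0 of 4 passed the test. Cpt1a, the carnitine palmitoyltransferase that commits long chains to the mitochondrion, stood at 174, 179 and 179 CPM in JQ1 treatment kidneys, against 150.4, 155 and 159 CPM in vehicle treatment kidneys and 152 CPM in the vehicle recovery kidney. The groups did not overlap although the means differed only 1.15-fold (log2 fold change 0.20 ± 0.06, adjusted p = 0.0631), and DESeq2 gave an adjusted p of 0.00843. The carnitine carrier Slc25a20 was at 35.1, 34.6 and 35.3 CPM in JQ1 treatment kidneys, also just above the 4 vehicle kidneys (31.9, 33.1 and 33.4 CPM in vehicle treatment kidneys and 31.7 CPM in the vehicle recovery kidney), at a log2 fold change of 0.10 ± 0.08. The inner-membrane enzyme Cpt2 and the carnitine acetyltransferase Crat each had a log2 fold change of 0.13.

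Within the spiral, 1 of 7 genes rose. This was Acadl, the long-chain acyl-CoA dehydrogenase of the first step (chr1:66830839-66863277, minus strand), at 335, 343 and 316 CPM in JQ1 treatment kidneys, against 280.1, 260.3 and 277 CPM in vehicle treatment kidneys and 249 CPM in the vehicle recovery kidney. Its lowest JQ1 treatment kidney was above its highest vehicle kidney, and the rise was 1.24-fold (log2 fold change 0.32 ± 0.07, adjusted p = 0.0102). The dehydrogenases for other chain lengths were not called, and whether their fold changes differ from that of Acadl was not tested. Acadm, for medium chains, lay below vehicle without overlap (462, 449 and 441 CPM in JQ1 treatment kidneys, against 496, 482 and 491 CPM in vehicle treatment kidneys and 489.6 CPM in the vehicle recovery kidney), but its log2 fold change of -0.12 ± 0.06 did not pass the test (adjusted p = 0.361), and Acadvl and Acads, for very long and short chains, were at 0.05 and -0.05. The subunits of the trifunctional protein, Hadha and Hadhb, were at 0.14 and 0.03 and the last-step thiolase Acaa2 at 0.25, none of them called. The median of the 7 was 0.05.

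Eci1, the mitochondrial isomerase that moves the double bond of unsaturated chains so that the spiral can continue (chr17:24426641-24439348, plus strand), stood at 121, 124 and 117 CPM in JQ1 treatment kidneys, against 96.9, 89.9 and 98.1 CPM in vehicle treatment kidneys and 91.3 CPM in the vehicle recovery kidney. Again no JQ1 treatment kidney reached down to the vehicle range, and the rise was 1.28-fold (log2 fold change 0.36 ± 0.07, adjusted p = 0.00366). The neighbouring auxiliary enzymes gave values of the other sign without passing the test, Ech1 at -0.30 ± 0.10 (adjusted p = 0.0985) and Decr1 at -0.02 ± 0.08. The electron transfer flavoproteins Etfa, Etfb and Etfdh were all above 0, at 0.08, 0.11 and 0.21, with 0 of 3 called.

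Among the 8 peroxisomal genes, 1 fell and 0 rose. Phyh, the phytanoyl-CoA hydroxylase that opens alpha-oxidation of branched phytanic acid (chr2:4919019-4938730, plus strand), stood at 294, 301 and 301 CPM in JQ1 treatment kidneys, against 446, 381 and 453 CPM in vehicle treatment kidneys and 528 CPM in the vehicle recovery kidney. The 3 JQ1 treatment kidneys lay close together, all below the lowest vehicle kidney, and the mean was 1.51-fold lower (log2 fold change -0.60 ± 0.09, adjusted p = 0.000383). The vehicle recovery kidney was the highest of the vehicle group. Against the vehicle treatment kidneys alone the log2 fold change was -0.51 (adjusted p = 0.000399). The 15 proximal tubule markers summed to 24268 to 25232 CPM in JQ1 treatment kidneys and 24746 to 34422 CPM in vehicle kidneys, with 9 of 15 above 0, 3 called higher and 2 lower, and their part in the fall of Phyh was not tested. Much of that sum was Kap, at 10053 to 10814.5 CPM (without TMM) in JQ1 treatment kidneys and 12850 to 21810 CPM in vehicle kidneys.

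The peroxisomal bifunctional enzyme Ehhadh stood at 147, 99.3 and 116 CPM in JQ1 treatment kidneys, against 85, 72.6 and 68.2 CPM in vehicle treatment kidneys and 72.1 CPM in the vehicle recovery kidney. All 3 JQ1 treatment kidneys were above vehicle but ranged widely, and the log2 fold change of 0.70 ± 0.24 did not pass the test (adjusted p = 0.187). Fitted on the compared groups alone it did (adjusted p = 0.00961). The remaining peroxisomal genes Hsd17b4, Acaa1a, Acaa1b, Decr2, Eci2 and Pex11a had log2 fold changes between -0.03 (Acaa1a) and 0.21 (Pex11a), none called.

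To show the sequence upstream of the genes described so far, the RefSeq promoter windows (GRCm38.p6, 250 bases before to 50 after the transcript start, written 5′ to 3′ on the strand of the gene) were searched for AGGTCA, the hexamer bound by PPARA and related nuclear receptors, on either strand (reverse complement TGACCT), and for AGGTCANAGGTCA, the spaced repeat bound by PPARA with its partner RXR. RefSeq windows were matched for 33 of the 39 members (36 windows). The hexamer was present in 10 of the 36 windows, of 9 members (Cd36, Fabp1, Cpt1a, Acadvl, Acadm, Phyh, Acot3, Acot4 and Plin2), and in 16.3% of all 32851 windows. The spaced repeat was in 0 of 36 and in 13 of 32851 windows. Of the members called in kidney, Phyh held the hexamer (capitals, at +37 from the start) and Acadl, Eci1 and Mgll did not, so that a window with it and windows without it stand beside Cpt1a (at -94). Phyh is chr2:4918746-4919045 (plus strand), Cpt1a chr19:3323051-3323350 (plus strand), Acadl chr1:66863260-66863559 (minus strand) and Eci1 chr17:24426433-24426732 (plus strand).
Phyh: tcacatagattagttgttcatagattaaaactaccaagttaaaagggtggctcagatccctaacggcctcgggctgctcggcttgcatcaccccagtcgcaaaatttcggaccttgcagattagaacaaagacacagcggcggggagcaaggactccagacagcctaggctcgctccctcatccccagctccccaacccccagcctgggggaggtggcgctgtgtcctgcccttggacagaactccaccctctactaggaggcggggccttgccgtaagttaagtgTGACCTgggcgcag
Cpt1a: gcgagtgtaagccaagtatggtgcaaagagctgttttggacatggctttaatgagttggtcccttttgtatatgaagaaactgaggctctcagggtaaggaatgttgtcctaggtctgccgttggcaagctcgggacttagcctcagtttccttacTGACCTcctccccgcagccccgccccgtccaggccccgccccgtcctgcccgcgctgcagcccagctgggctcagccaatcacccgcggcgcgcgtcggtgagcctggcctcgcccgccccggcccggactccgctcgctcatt
Acadl: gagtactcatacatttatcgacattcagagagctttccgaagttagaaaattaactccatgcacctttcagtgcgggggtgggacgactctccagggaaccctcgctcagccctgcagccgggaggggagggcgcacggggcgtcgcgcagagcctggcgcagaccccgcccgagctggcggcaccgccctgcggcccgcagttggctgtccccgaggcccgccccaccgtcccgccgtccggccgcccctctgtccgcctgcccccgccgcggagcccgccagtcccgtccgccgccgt
Eci1: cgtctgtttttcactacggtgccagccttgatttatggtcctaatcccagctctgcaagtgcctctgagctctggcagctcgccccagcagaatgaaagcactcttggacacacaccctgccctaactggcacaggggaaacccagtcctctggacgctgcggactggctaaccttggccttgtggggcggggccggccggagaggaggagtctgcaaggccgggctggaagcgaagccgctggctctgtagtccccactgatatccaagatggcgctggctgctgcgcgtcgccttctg
Angptl4, Crat, Acaa2, Decr1, Hsd17b4 and Vnn1 have no entry.

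Bdh1, the mitochondrial enzyme that interconverts acetoacetate and beta-hydroxybutyrate (chr16:31422280-31458901, plus strand), was the only ketone body enzyme in the set. It stood at 37.6, 52.3 and 36.1 CPM in JQ1 treatment kidneys, against 73.4, 61.6 and 62.8 CPM in vehicle treatment kidneys and 99.9 CPM in the vehicle recovery kidney. Every JQ1 treatment kidney was below every vehicle kidney, and the highest value of all was the vehicle recovery kidney. The mean was 1.76-fold lower, yet the log2 fold change of -0.82 ± 0.20 fell short of the threshold (adjusted p = 0.0587). It passed against the vehicle treatment kidneys alone (log2 fold change -0.63, adjusted p = 0.0261) and with DESeq2 (adjusted p = 2.44e-05).

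Mgll encodes monoacylglycerol lipase, which releases the last fatty acid of a triglyceride (chr6:88724412-88828360, plus strand). It stood at 233, 255 and 235 CPM in JQ1 treatment kidneys, against 197, 148 and 205 CPM in vehicle treatment kidneys and 201 CPM in the vehicle recovery kidney. The groups did not overlap, with vehicle treatment replicate 2 well below the other vehicle kidneys, and the 1.28-fold rise passed narrowly (log2 fold change 0.36 ± 0.09, adjusted p = 0.0391). This was the least stable of the 5 calls: it was lost in 6 of 10 fits that left out 1 library, where the adjusted p reached 0.106. Angptl4, Eci1, Acadl and Phyh were called in all 10 of those fits. Plin2, the coat protein of lipid droplets, overlapped with vehicle (log2 fold change 0.29 ± 0.25).

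The acyl-CoA thioesterases Acot1, Acot2, Acot3 and Acot4, a cluster of duplicated genes at chr12:83987861-84060402 that release free fatty acids from CoA, all had log2 fold changes above 0, with 0 of 4 called. Acot1 stood at 68, 94.2 and 79.4 CPM in JQ1 treatment kidneys, against 66.6, 61.7 and 67.6 CPM in vehicle treatment kidneys and 59.6 CPM in the vehicle recovery kidney, the lowest JQ1 treatment kidney lying just above the highest vehicle kidney (log2 fold change 0.34 ± 0.10, adjusted p = 0.0642). Acot1 and Acot2 share sequence, 15.0% of 75-base windows of Acot1 transcripts and 21.2% of those of Acot2 also occurring in other genes (mostly in each other), so the split of reads between them is uncertain. Acaa1b shares 24.4% of its windows with Acaa1a. Etfb shares 39.6% of its windows with Gm45233 and Hadhb 16.4% with Gm13910, and neither partner was among the genes quantified. The 5 called members had 0 such windows.

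The other classical targets were not called. Pdk4, the kinase that shuts off pyruvate entry when fat is burned, was at 4.73, 4.41 and 5.47 CPM in JQ1 treatment kidneys, against 4.28, 2.94 and 5.08 CPM in vehicle treatment kidneys and 3.62 CPM in the vehicle recovery kidney (log2 fold change 0.28 ± 0.23, adjusted p = 0.593). Vnn1, a pantetheinase, was at 16.1, 25.6 and 20.2 CPM in JQ1 treatment kidneys, against 21, 21.8 and 26.1 CPM in vehicle treatment kidneys and 14.1 CPM in the vehicle recovery kidney (log2 fold change 0.00 ± 0.19). Cd36, the fatty acid translocase, was at 106, 69.1 and 69.8 CPM in JQ1 treatment kidneys, against 109.6, 80.4 and 111 CPM in vehicle treatment kidneys and 148 CPM in the vehicle recovery kidney (log2 fold change -0.46 ± 0.24, adjusted p = 0.39), and Fabp1, the liver-type binding protein, at -1.03 ± 0.54 (adjusted p = 0.403). All 3 of Pdk4, Vnn1 and Cd36 overlapped between groups.

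**Figure D2:**
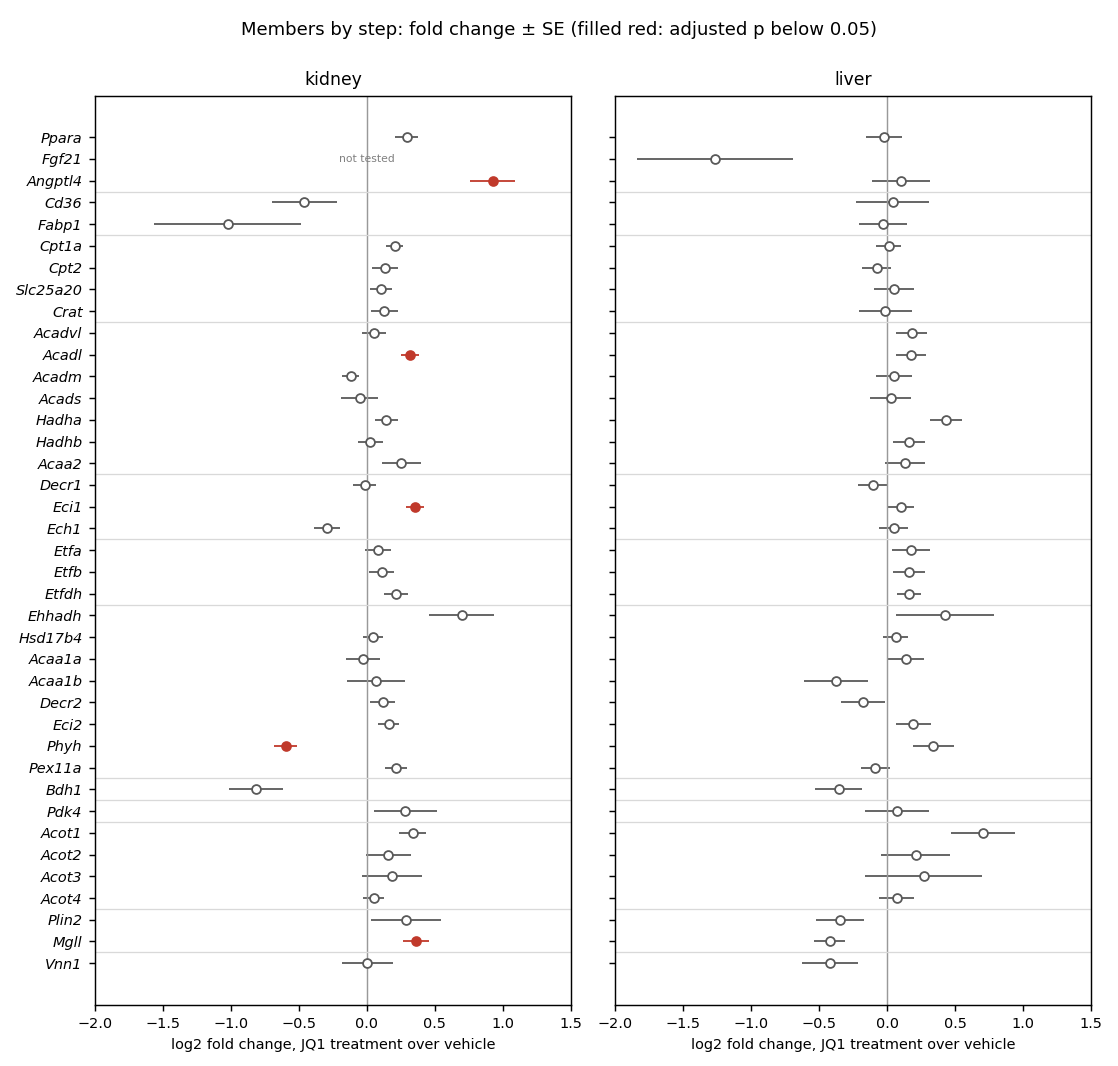
Log2 fold change of JQ1 treatment over vehicle for each member in kidney (left) and liver (right), grouped by step (grey lines). Points are fitted values, bars are SE and filled points passed an adjusted p below 0.05. In kidney the 5 filled points are Angptl4, Eci1, Acadl and Mgll above 0 and Phyh below it, in liver 0 are filled, and Fgf21 was not tested in kidney.

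At 6 weeks after the last dose the kidney calls were not present. In edgeR's test 0 of 38 members were called between JQ1 recovery and vehicle (0.00583% of all genes tested were called, 1 gene), 6 were lower and 0 higher at an unadjusted p below 0.05 (4.37% of all genes were lower and 4.79% higher at that threshold), and DESeq2 called 1 and voom 0. The median log2 fold change was -0.08, with 14 members above 0 and 24 below, against 48.6% of all genes above 0. For the members that had changed under treatment the recovery values were 5.58, 6.24 and 8.29 CPM in JQ1 recovery kidneys for Angptl4, 86.1, 94.5 and 88.4 CPM in JQ1 recovery kidneys for Eci1, 249, 231 and 259 CPM in JQ1 recovery kidneys for Acadl, 178, 186 and 165 CPM in JQ1 recovery kidneys for Mgll and 527, 485 and 504 CPM in JQ1 recovery kidneys for Phyh. The ranges overlapped with vehicle for all 5, although 2 of the 3 values of Angptl4 lay below it (log2 fold change -0.47 ± 0.18, adjusted p = 0.428).

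At recovery 6 members lay below vehicle without overlap and 0 above it, where 5.2% of all genes were lower without overlap. Pdk4 had the largest such difference, at 1.92, 1.65 and 2.8 CPM in JQ1 recovery kidneys, against 4.28, 2.94 and 5.08 CPM in vehicle treatment kidneys and 3.62 CPM in the vehicle recovery kidney (log2 fold change -0.91 ± 0.25, adjusted p = 0.264). Acot1 was at 51.3, 42.6 and 50.6 CPM in JQ1 recovery kidneys, against 66.6, 61.7 and 67.6 CPM in vehicle treatment kidneys and 59.6 CPM in the vehicle recovery kidney (log2 fold change -0.41 ± 0.10, adjusted p = 0.241). The others were Acaa2 (-0.46), Acot3 (-0.35), Slc25a20 (-0.21) and Cpt1a (-0.11). All 14 adipocyte markers were below vehicle in these libraries (median log2 fold change -1.79, summed 151 to 160.2 CPM in JQ1 recovery kidneys and 201 to 624 CPM in vehicle kidneys), and their part in these values was not tested.

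Set directly against each other, JQ1 treatment and JQ1 recovery kidneys differed for 12 members, 10 of them higher and 2 lower under treatment (7.31% of all genes tested were called, 2.41% higher and 4.91% lower). These groups also differ in age by design, and drug and age cannot be told apart here. Angptl4 was highest in treatment by 1.40 ± 0.18 on the log2 scale (adjusted p = 0.000118), followed by Pdk4, Acot1, Acaa2, Mgll, Acadl, Eci1, Ppara, Slc25a20 and Cpt1a. Pdk4 stood at 4.73, 4.41 and 5.47 CPM in JQ1 treatment kidneys and 1.92, 1.65 and 2.8 CPM in JQ1 recovery kidneys (log2 fold change 1.19 ± 0.26, adjusted p = 0.00791). Acot1 stood at 68, 94.2 and 79.4 CPM in JQ1 treatment kidneys and 51.3, 42.6 and 50.6 CPM in JQ1 recovery kidneys (log2 fold change 0.74 ± 0.11, adjusted p = 0.000293). For neither gene did the groups overlap.

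The spiral thiolase Acaa2 (0.71, adjusted p = 0.0128), the carrier Slc25a20 (0.32, 0.0314) and Cpt1a (0.31, 0.00509) were called in this comparison without having been called against vehicle. The same held for Pdk4, Acot1, Ppara and Bdh1. Phyh and Bdh1 were the members lower under treatment, by -0.76 ± 0.09 (adjusted p = 5.16e-05) and -0.98 ± 0.21 (adjusted p = 0.0253). Cd36 and Plin2 lay apart without passing the test. Cd36 was at 106, 69.1 and 69.8 CPM in JQ1 treatment kidneys and 176, 137 and 149.6 CPM in JQ1 recovery kidneys (adjusted p = 0.0748), and Plin2 at 22.3, 12.3 and 15.1 CPM in JQ1 treatment kidneys and 9.24, 7.36 and 8.58 CPM in JQ1 recovery kidneys (adjusted p = 0.0681). The 14 adipocyte markers were all above 0 in this comparison too (median 2.38, 0 called), and Angptl4, Cd36, Plin2 and Mgll are also genes of adipocytes. Markers of other cell types lay apart between these groups as well. Proximal tubule markers summed to 24268 to 25232 CPM in JQ1 treatment kidneys and 33865 to 34821 CPM in JQ1 recovery kidneys (7 of 15 above 0). Much of that sum was Kap, at 10053 to 10814.5 CPM (without TMM) in JQ1 treatment kidneys and 19476 to 21131.5 CPM in JQ1 recovery kidneys. Red cell markers summed to 9363 to 12969 CPM in JQ1 treatment kidneys and 5506 to 6238 CPM in JQ1 recovery kidneys (6 of 6 above 0). The part of adipocyte, proximal tubule or red cell RNA in these values, those of Phyh and Bdh1 included, was not tested. Bdh1 and Slc25a20 were each lost in 5 and Ppara in 3 of the 10 fits that left out 1 library. Without JQ1 treatment replicate 1, Bdh1 (adjusted p = 0.111) and Slc25a20 (adjusted p = 0.0698) were not called.

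**Figure D3:**
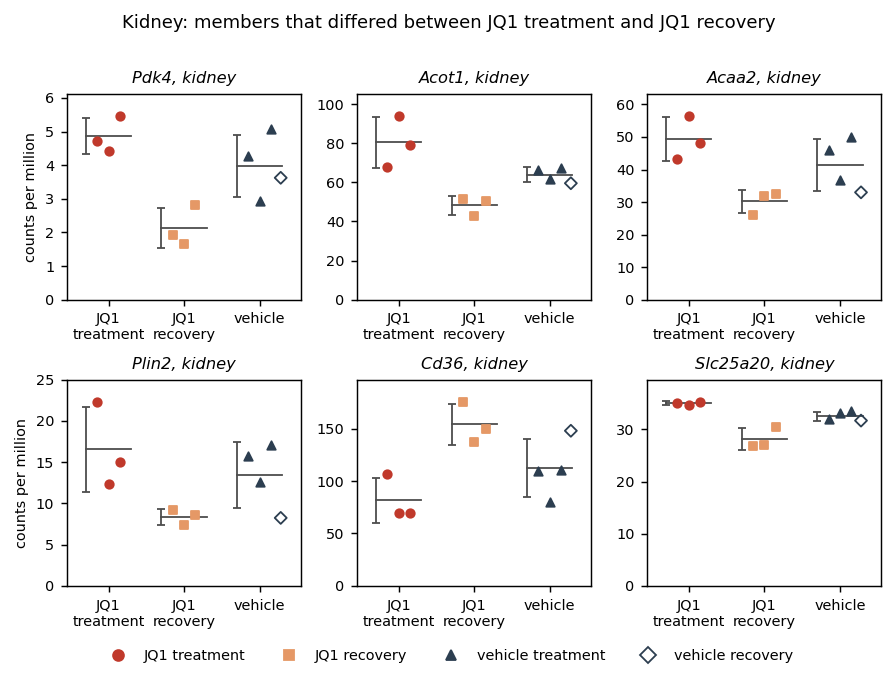
CPM (linear axis from 0) of Pdk4, Acot1, Acaa2, Plin2, Cd36 and Slc25a20 in every kidney library, by group from left to right JQ1 treatment, JQ1 recovery and vehicle. Points are libraries, the open diamond is the vehicle recovery library, lines are means and bars SD. JQ1 treatment and JQ1 recovery libraries do not overlap in any panel, and for Plin2 and Cd36 the vehicle recovery library (8.25 and 148 CPM) lies with the JQ1 recovery libraries.

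The single vehicle recovery kidney was of the age of the JQ1 recovery kidneys. It lay outside the range of the 3 vehicle treatment kidneys for 23 of 39 members, against 56.4% of all genes. The vehicle recovery liver likewise lay outside the range of the vehicle treatment livers for 23 of 39 members, against 54% of all genes. Both shares are near that of all genes. Phyh was at 528 CPM in the vehicle recovery kidney and 446, 381 and 453 CPM in vehicle treatment kidneys. Bdh1 was at 99.9 CPM and 73.4, 61.6 and 62.8 CPM in the same order. With 1 library this is a description without a test.

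In liver, the same test called 0 of 39 members after JQ1 treatment (0.495% of all 14559 genes tested were called). At an unadjusted p below 0.05, 3 members were higher and 2 lower (4.88% of all genes were higher and 4.64% lower), DESeq2 called 2 and voom 0. The median log2 fold change was 0.06, against 0.0025 over all genes, with 26 members above 0 and 13 below (50.3% of all genes were above 0). JQ1 treatment and vehicle livers did not overlap for 3 members on the higher side and 3 on the lower, where 6.79% of all genes were higher and 6.13% lower without overlap. The count depends on the liver JQ1 recovery libraries with kidney RNA, which enter the estimate of the spread. With both left out, 4 members were called where 2.3% of all genes tested in that fit were called, Hadha and Phyh higher and Mgll and Bdh1 lower.

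Hadha, the subunit of the trifunctional protein that carries the hydratase and the long-chain dehydrogenase, stood at 299, 342 and 379 CPM in JQ1 treatment livers, against 273, 254 and 251 CPM in vehicle treatment livers and 231 CPM in the vehicle recovery liver. The JQ1 treatment livers were all above vehicle (log2 fold change 0.43 ± 0.12, adjusted p = 0.15, and 0.0144 without the 2 recovery libraries). Hadhb, which encodes the partner subunit with the thiolase, overlapped with vehicle at 82.4, 87.9 and 107 CPM in JQ1 treatment livers, against 87.1, 85.6 and 86.7 CPM in vehicle treatment livers and 71.3 CPM in the vehicle recovery liver (log2 fold change 0.16 ± 0.12). The other 5 spiral genes were between 0.03 and 0.18, all 7 above 0, and the 3 electron transfer flavoproteins were between 0.16 and 0.18.

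Hadha and Hadhb lie head to head, with RefSeq starts 273 bases apart, and so share the stretch between them. It is shown because JQ1 treatment livers lay outside the vehicle range for Hadha and not for Hadhb although the stretch is common to both. The window chr5:30155003-30155230 (GRCm38.p6, plus strand, which is the strand of Hadhb) is covered by the promoter windows of both genes and holds no AGGTCA on either strand.
Hadha and Hadhb: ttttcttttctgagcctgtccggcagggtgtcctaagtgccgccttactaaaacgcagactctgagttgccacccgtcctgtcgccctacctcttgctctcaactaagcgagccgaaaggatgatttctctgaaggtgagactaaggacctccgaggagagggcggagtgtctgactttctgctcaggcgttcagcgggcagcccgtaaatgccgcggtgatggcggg
Whether the fold changes of these genes differ from each other was not tested.

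Phyh, lower in kidney, stood in liver at 1273, 1406 and 1512 CPM in JQ1 treatment livers, against 1128, 1125 and 1063 CPM in vehicle treatment livers and 1093 CPM in the vehicle recovery liver, higher in all 3 JQ1 treatment livers (log2 fold change 0.34 ± 0.15, adjusted p = 0.482, and 0.0397 without the 2 recovery libraries). Mgll, higher in kidney, stood in liver at 132, 127 and 159.8 CPM in JQ1 treatment livers, against 179.9, 183 and 173 CPM in vehicle treatment livers and 212 CPM in the vehicle recovery liver, lower in all 3 (log2 fold change -0.42 ± 0.11, adjusted p = 0.142, and 0.0196 without them). Bdh1 stood at 78.1, 87.5 and 74.5 CPM in JQ1 treatment livers, against 108, 91.5 and 100.5 CPM in vehicle treatment livers and 110.2 CPM in the vehicle recovery liver, below vehicle as in kidney (log2 fold change -0.36 ± 0.17, adjusted p = 0.559, and 0.0421 without them). In these livers the summed level of 12 hepatocyte markers was 85286 to 94597 CPM in JQ1 treatment livers and 67119 to 75614 CPM in vehicle livers, with 9 of 12 markers above 0 and 0 called, and its part in these values was not tested. Much of that sum was Alb, at 44122 to 52549 CPM (without TMM) in JQ1 treatment livers and 36436.5 to 44405.5 CPM in vehicle livers.

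Fgf21, the ketogenic fasting hormone, was low throughout at 0.579, 0.558 and 1.54 CPM in JQ1 treatment livers, against 1.29, 2.82 and 3.72 CPM in vehicle treatment livers and 0.695 CPM in the vehicle recovery liver. Vehicle livers ranged widely, and it was not called (log2 fold change -1.27 ± 0.58, adjusted p = 0.51). Acot1 stood at 29, 35.9 and 56.3 CPM in JQ1 treatment livers, against 30.3, 25.8 and 24.1 CPM in vehicle treatment livers and 19 CPM in the vehicle recovery liver, with 1 JQ1 treatment liver inside the vehicle range (log2 fold change 0.70 ± 0.23, adjusted p = 0.324). Vnn1 was at 7.03, 7.9 and 13.2 CPM in JQ1 treatment livers, against 12.2, 12.6 and 11.5 CPM in vehicle treatment livers and 13.8 CPM in the vehicle recovery liver (log2 fold change -0.42 ± 0.21), and Plin2 at 111, 119 and 147 CPM in JQ1 treatment livers, against 151, 129 and 149.7 CPM in vehicle treatment livers and 208 CPM in the vehicle recovery liver (log2 fold change -0.35 ± 0.18, adjusted p = 0.59). Groups overlapped for each of these 4 genes.

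The regulators and entry genes were not called in liver. Ppara stood at 127, 149.7 and 165 CPM in JQ1 treatment livers, against 137, 148 and 165 CPM in vehicle treatment livers and 148 CPM in the vehicle recovery liver (log2 fold change -0.02 ± 0.13), and Cpt1a at 84.2, 79.5 and 74.3 CPM in JQ1 treatment livers, against 77.8, 85 and 75.8 CPM in vehicle treatment livers and 76.4 CPM in the vehicle recovery liver (log2 fold change 0.01 ± 0.09). Angptl4, which rose in kidney, was at 12.4, 12 and 18.3 CPM in JQ1 treatment livers, against 18, 9.41 and 13.6 CPM in vehicle treatment livers and 12.1 CPM in the vehicle recovery liver (log2 fold change 0.10 ± 0.21, adjusted p = 0.937). Pdk4 was at 3.98, 5.11 and 4.69 CPM in JQ1 treatment livers, against 4.63, 4.49 and 3.42 CPM in vehicle treatment livers and 4.92 CPM in the vehicle recovery liver (log2 fold change 0.07 ± 0.23). Ehhadh reached 66.9, 76.9 and 135 CPM in JQ1 treatment livers, against 87, 71.4 and 82.4 CPM in vehicle treatment livers and 35.2 CPM in the vehicle recovery liver (log2 fold change 0.43 ± 0.36, adjusted p = 0.793). Cd36 was at 13.7, 14 and 19.6 CPM in JQ1 treatment livers, against 12.2, 15.1 and 19 CPM in vehicle treatment livers and 14.7 CPM in the vehicle recovery liver (log2 fold change 0.04 ± 0.27). For all of these the ranges overlapped.

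At recovery the test called 0 of 39 members in liver (0.0343% of all genes tested were called), with 9 lower and 0 higher at an unadjusted p below 0.05 (7.12% of all genes were lower and 9.57% higher), 2 called by DESeq2 and 0 by voom. The median was -0.15, with 10 members above 0 and 29 below (52.2% of all genes were above 0), and 8 members lay below vehicle without overlap, against 6.13% of all genes. Among the members with the lowest value in replicate 2, the library with the most kidney RNA, Fabp1 was at 4373, 2469 and 3726 CPM in JQ1 recovery livers, Acaa2 at 458, 274 and 402 CPM in JQ1 recovery livers and Decr2 at 134, 69.2 and 115 CPM in JQ1 recovery livers, replicate 1 first. Without replicate 1, leaving only the libraries with kidney RNA, 7 members were called, Cd36 higher and 6 lower, where 13.6% of all genes tested in that fit were called. Recovery and kidney RNA cannot be told apart in those libraries.

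JQ1 treatment and JQ1 recovery livers differed for 2 members, both higher under treatment (2.29% of all genes tested were called, 1.31% higher). They were Hadha (log2 fold change 0.59 ± 0.13, adjusted p = 0.029) and Etfdh, the oxidoreductase that passes electrons on to ubiquinone, at 110.1, 113 and 111 CPM in JQ1 treatment livers and 85.5, 77.2 and 76.3 CPM in JQ1 recovery livers (log2 fold change 0.48 ± 0.09, adjusted p = 0.021). With both libraries that held kidney RNA left out, 1 JQ1 recovery liver remained, assumed to vary like the other groups, and 0.887% of all genes were called. In that fit the log2 fold changes were 0.44 for Hadha and 0.37 for Etfdh, and neither passed (adjusted p = 0.209 and 0.243).

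The effect of JQ1 treatment was then compared between organs in 1 model, as the effect in kidney minus that in liver. Of 39 members, 1 had a higher and 1 a lower effect in kidney (0.169% of all 17710 genes tested were called, 0.0339% higher and 0.136% lower). Phyh differed by -0.93 ± 0.17 on the log2 scale (adjusted p = 0.0217), being -0.60 in kidney and 0.34 in liver. Mgll differed by 0.79 ± 0.15 (adjusted p = 0.0309), being 0.36 in kidney and -0.42 in liver. Both calls were narrow: leaving out 1 library lost Phyh in 6 and Mgll in 7 of 20 fits, and both without kidney JQ1 treatment replicate 1, and with the replicate block neither passed (adjusted p = 0.0849 for Phyh and 0.107 for Mgll). Angptl4 (0.83 ± 0.29, adjusted p = 0.45), Eci1 (0.27 ± 0.11, 0.555) and Acadl (0.15 ± 0.12, 0.862), called in kidney and not in liver, were not shown to differ between organs.

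**Figure D4:**
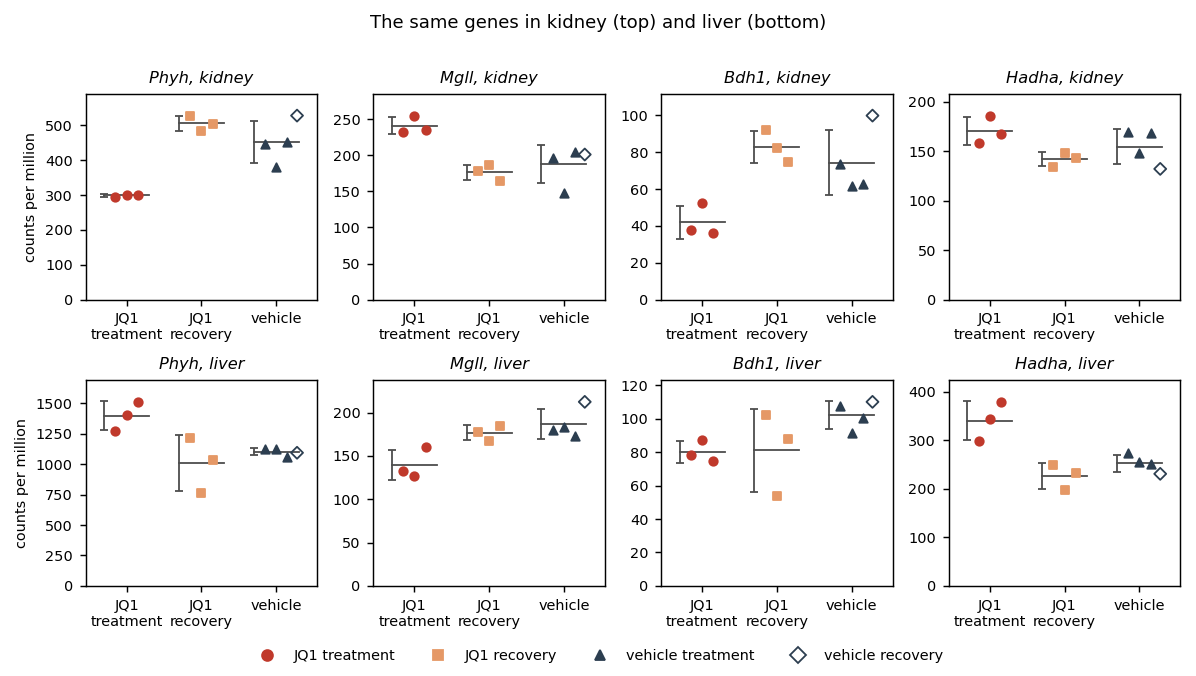
CPM (linear axis from 0) of Phyh, Mgll, Bdh1 and Hadha in every kidney library (top) and liver library (bottom), by group from left to right JQ1 treatment, JQ1 recovery and vehicle. Points are libraries, the open diamond is the vehicle recovery library, lines are means and bars SD. JQ1 treatment libraries lie below vehicle for Phyh in kidney and above it in liver, lie above vehicle for Mgll in kidney and below it in liver, and lie below vehicle for Bdh1 in both organs.

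The order of levels differed between organs. In vehicle kidneys the highest members per length were Etfb (395 ± 37.1 TPM, SD, n = 4), Ech1 (359.6 ± 31.1 TPM), Acadm (342 ± 66.5 TPM) and Phyh (284 ± 39.7 TPM), neighbours in this order whose ranges overlapped. In vehicle livers Fabp1 stood far above all others (6993 ± 368 TPM), followed by Acaa2 (736 ± 43.6 TPM) and Phyh (428 ± 43.1 TPM), without overlap between these 3. Next came Acaa1b (209.7 ± 23.2 TPM) and Etfb (202 ± 19.8 TPM), whose ranges overlapped. The lowest members were Fgf21, Pdk4 and Acot3 in kidney and Acot3, Pdk4 and Fgf21 in liver. Most TPM of Acadvl (96.8% in kidney and 96.6% in liver) and the larger share of that of Hadha (60.7% and 61.1%) and Ech1 (62.1% and 64.2%) was assigned to short transcripts annotated as retained introns, so their levels per length depend on that assignment.

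Direction between organs depended on the scale. By TPM, 24 members were higher in kidney and 9 higher in liver without overlap, and 6 overlapped, while in the TMM-scaled fit 7 were called higher and 28 lower in kidney (61.8% of all genes tested were called, 32.1% higher and 29.6% lower). The direction differed for 22 members, and the 8848 genes above 1 TPM in both organs had themselves a median log2 ratio of 1.28 in TPM. On both scales kidney was higher for Cd36 (28.8 ± 6.95 TPM in kidney, 2.39 ± 0.379 TPM in liver), Acot2 (25 ± 3.22 TPM in kidney, 3.44 ± 1.06 TPM in liver), Acadm, Cpt1a, Crat, Acot1 and Acot4. On both scales liver was higher for Fabp1 (39.8 ± 23.4 TPM in kidney), Acaa2 (100.4 ± 18.6 TPM in kidney), Plin2 (7.32 ± 1.74 TPM in kidney, 47.6 ± 9.95 TPM in liver), Fgf21, Acaa1b, Decr2, Phyh, Hsd17b4 and Slc25a20. Ppara was at 24.6 ± 0.992 TPM in kidney and 24.6 ± 1.99 TPM in liver.

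**Figure D5:**
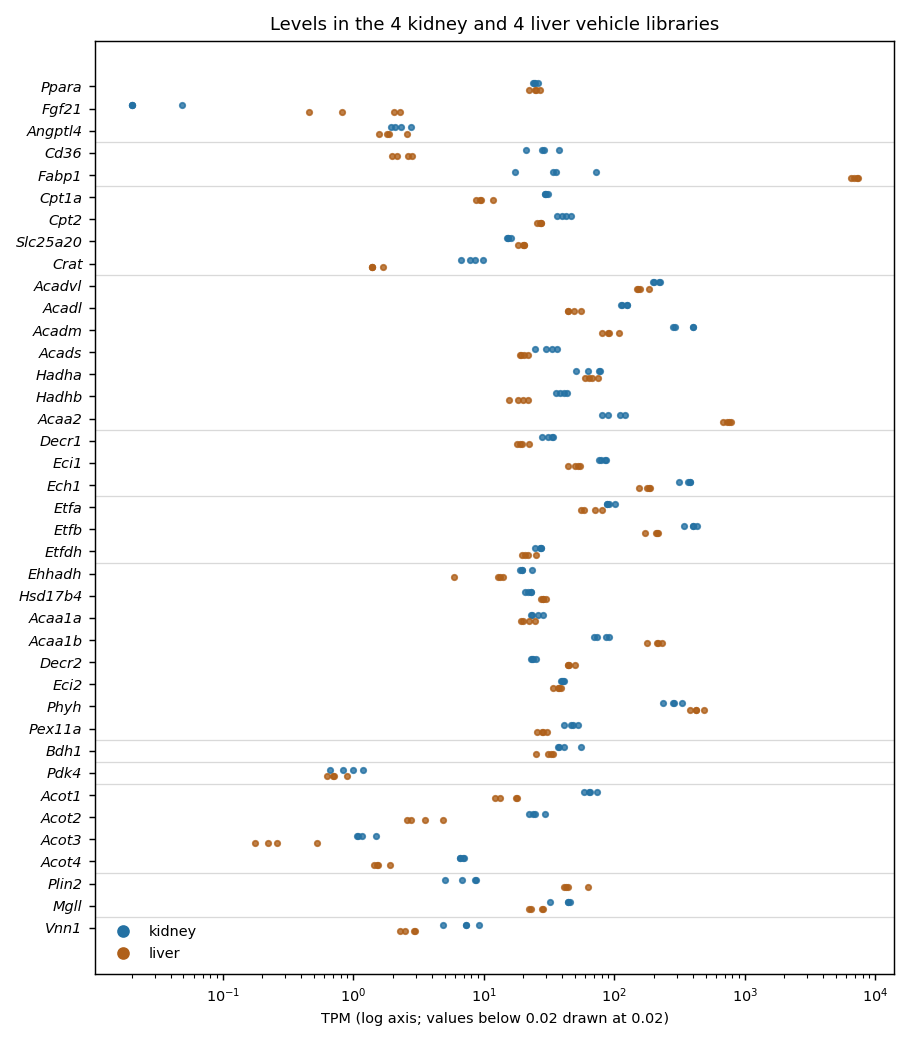
Level per length of every member in vehicle kidneys and vehicle livers (TPM, log axis), grouped by step. Each point is 1 of 4 libraries per organ, and kidney libraries without a read of Fgf21 are drawn at the left. Fabp1 (39.8 TPM in kidney, 6993 TPM in liver) and Acaa2 (100.4 and 736 TPM) lie furthest towards liver, and Cd36 (28.8 and 2.39 TPM) and Acot2 (25.0 and 3.44 TPM) furthest towards kidney among members above 1 TPM in both organs.

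The wider pathway was read from a list of 139 further genes, 138 of which were in the files. In kidney, 8 of 129 tested rose under JQ1 and 10 fell, where 1.4% of all genes tested were called higher and 2.73% lower. The median log2 fold change of the list was -0.07. The 6 with the lowest p were Lipa, the lysosomal acid lipase (0.54 ± 0.07), Acox2, the peroxisomal oxidase of branched chains and bile acid precursors (-2.03 ± 0.22), Mogat1, a monoacylglycerol acyltransferase (-2.01 ± 0.18), the peroxisomal carnitine octanoyltransferase Crot (-0.54 ± 0.09), Mpv17l (-0.59 ± 0.10) and Slc27a2, a very-long-chain acyl-CoA synthetase (0.44 ± 0.08). Acox2 fell to 2.64, 6.02 and 5.0 CPM in JQ1 treatment kidneys, against 18.4, 14.8 and 21.9 CPM in vehicle treatment kidneys and 21.5 CPM in the vehicle recovery kidney, without overlap. At recovery it stood at 21.7, 19.4 and 17.8 CPM in JQ1 recovery kidneys, and its effect differed between organs by -1.96 ± 0.36 (adjusted p = 0.0327), a call lost in 15 of 20 fits that left out 1 library, that without kidney JQ1 treatment replicate 1 included. The 6 were called in kidney without that replicate too. Both Phyh and Acox2 act on branched chains in the peroxisome, but they were put together after their values were seen. Of the 26 further peroxisomal genes tested 3 rose and 3 fell, where 1.4% of all genes tested were called higher and 2.73% lower.

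Beside Bdh1, further genes of ketone body use and transport from the wider list were tested in kidney, and those described here were chosen after their values were seen. Slc16a6, known in zebrafish as the exporter of beta-hydroxybutyrate from liver, stood at 70.3, 74.6 and 72.6 CPM in JQ1 treatment kidneys, against 47.1, 39.8 and 53.5 CPM in vehicle treatment kidneys and 57 CPM in the vehicle recovery kidney (log2 fold change 0.55 ± 0.10, adjusted p = 0.00201). It was also the 1 gene of all those tested that was called in JQ1 recovery against vehicle kidneys, at 76.1, 80.2 and 79.9 CPM in JQ1 recovery kidneys (log2 fold change 0.67 ± 0.10, adjusted p = 0.028). The recovery call was lost in 5 of 10 fits that left out 1 library (adjusted p up to 0.221) and under 4 of 8 other alternatives. Among those 4 was vehicle of the same time only, which rests on 1 vehicle kidney. Oxct1, the transferase that activates acetoacetate for burning, fell to 1001, 1111 and 1021 CPM in JQ1 treatment kidneys, against 1399, 1193 and 1337 CPM in vehicle treatment kidneys and 1396 CPM in the vehicle recovery kidney (log2 fold change -0.35 ± 0.07, adjusted p = 0.00800).

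Aacs, the cytosolic acetoacetyl-CoA synthetase, was higher in JQ1 treatment than in vehicle kidneys by 0.79 ± 0.16 on the log2 scale (adjusted p = 0.0243), and the monocarboxylate transporter Slc16a1 by 0.43 ± 0.10 (adjusted p = 0.0204). Without JQ1 treatment replicate 1 neither was called (adjusted p = 0.112 for Aacs and 0.12 for Slc16a1), while Slc16a6 and Oxct1 were. The thiolase Acat1 (-0.05) was not called.

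In liver, 1 of 126 further genes rose and 1 fell under JQ1 (0.495% of all genes tested were called). Hacl1, the peroxisomal lyase that acts after Phyh in alpha-oxidation, stood at 312, 283 and 322 CPM in JQ1 treatment livers, against 197, 212 and 170.0 CPM in vehicle treatment livers and 210.0 CPM in the vehicle recovery liver (log2 fold change 0.63 ± 0.13, adjusted p = 0.0482). Every JQ1 treatment liver was above every vehicle liver. Fabp2, a fatty acid binding protein, fell to 36.9, 35.2 and 36.5 CPM in JQ1 treatment livers, against 57.6, 60.7 and 66.5 CPM in vehicle treatment livers and 72 CPM in the vehicle recovery liver (log2 fold change -0.83 ± 0.16, adjusted p = 0.0394). Hacl1 and Fabp2 were each lost in 8 of 10 fits that left out 1 library, and both were called without the 2 recovery libraries that held kidney RNA. Against JQ1 recovery livers 6 further genes were higher under treatment (1.31% of all genes tested were called higher). The largest difference was that of the omega-hydroxylase Cyp4a10, at 116, 159 and 169 CPM in JQ1 treatment livers and 23.5, 28.5 and 17.5 CPM in JQ1 recovery livers (log2 fold change 2.68 ± 0.50, adjusted p = 0.0400). Cyp4a10 was lost in 7 of 10 fits that left out 1 library and without both recovery libraries that held kidney RNA (adjusted p = 0.421, with 1 recovery liver left). Cyp4a10 was not called in JQ1 treatment against vehicle livers (log2 fold change 1.64 ± 0.43, adjusted p = 0.229). In JQ1 recovery against vehicle livers 0 of 126 were called (0.0343% of all genes tested were called). There Cyp4a10 was at a log2 fold change of -1.04 ± 0.45 (adjusted p = 0.307).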

How the data were processed

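Kidney and liver libraries were grouped by the labels into JQ1 treatment, JQ1 recovery and vehicle. The authors trimmed reads with fastp 0.20.1 and quantified transcripts of mouse with Salmon 1.10.0, and per the file headers each deposited table gives estimated counts and TPM for 147833 transcripts. Estimated counts were summed over the transcripts of each gene identifier (55642 genes, 24745 of them without a read) and rounded to whole numbers. Members were then found by symbol. TPM values were summed likewise and used only to compare levels between genes and organs.

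Genes were kept by filterByExpr (minimum count 10, minimum total 15), scaled by TMM and tested per organ with edgeR 4.0.16 (quasi-likelihood, robust, all groups of the organ in 1 fit, R 4.3.3), and organs in a joint fit. P-values were adjusted by the Benjamini-Hochberg method over all genes tested, and a gene was called at an adjusted p below 0.05. Fold changes are JQ1 over vehicle, JQ1 treatment over JQ1 recovery, or kidney over liver, and errors of fold changes are SE. The test was also run on simulated data, with the outcome not reported here. Groups were said not to overlap when the lowest value of one exceeded the highest of the other.

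The members and lists were chosen with earlier results of these data known. Every member is accounted for. Values in every library are given for members called in a comparison with vehicle or, with fewer than 8 called in an organ, the 8 of lowest p after treatment, and for Ppara, Cpt1a, Bdh1, Pdk4, Angptl4, Fgf21, Ehhadh, Acot1, Vnn1 and Cd36. Of the wider list, at most 6 called genes per comparison are named, apart from ketone genes named after seeing their values, and some genes of that list are not reported here. Alternatives were DESeq2 1.42.0, its size factors, voom in limma 3.58.1, length-scaled counts, no filter, the compared groups alone, vehicle of the same time only, a replicate block, and each library left out. Promoter windows were taken from RefSeq (GRCm38.p6), and loci and transcripts for shared windows from GENCODE M21. Sampling depth limits the precision of low genes such as Fgf21 and Pdk4.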

Additional observations from a re-analysis of the deposited data

Results flagged for a closer look

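For 5 of 77 groups of 4 vehicle values, 1 library stood apart from the other 3 by Dixon's test, and chance alone marks about 1 in 20 groups. In kidney, vehicle treatment replicate 2 was low for Ech1 (164 CPM, against 185 to 189 CPM in the other vehicle kidneys) and for Mgll (148 CPM, against 197 to 205 CPM), and vehicle treatment replicate 1 was high for Eci2 (67.8 CPM, against 65.2 to 65.5 CPM). In liver, the vehicle recovery library was low for Hadhb (71.3 CPM, against 85.6 to 87.1 CPM), and vehicle treatment replicate 2 was low for Acaa1b (499 CPM, against 704 to 730.4 CPM).

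For 2 members the effect of JQ1 treatment differed between organs in a test of the difference itself, kidney minus liver: Phyh by -0.93 and Mgll by 0.79 on the log2 scale.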

How the results depend on the processing

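Of the 5 members called in kidney after JQ1 treatment, Angptl4, Eci1, Acadl and Phyh passed under every alternative run, and Mgll was lost under 4 of 8 and in 6 of 10 fits that left out 1 library. The number called in that comparison was 8 with no filter (1084 of all genes) and 9 with DESeq2 (1009 of all genes, against 709 in the main fit). In JQ1 recovery against vehicle kidneys it was 2 with no filter and 1 with DESeq2, and the median became -0.0137 with vehicle of the same time only. In liver after JQ1 treatment it was 2 with DESeq2, 4 with the compared groups alone and 4 without the liver libraries that held kidney RNA, an alternative chosen after seeing the data. In JQ1 recovery against vehicle livers it was 2 with DESeq2. Between JQ1 treatment and JQ1 recovery livers it was 4 with no filter, 5 with DESeq2, 0 with the compared groups alone, 1 with the replicate block and 0 without the libraries with kidney RNA, where the median was 0.13. For the difference between organs the median was 0.0575 with DESeq2 and 0.0538 with the block. The number called was 0 with the block (adjusted p = 0.0849 for Phyh and 0.107 for Mgll). It was 1 with no TMM factors (42 of all genes), also chosen after seeing the data. The cause of these changes was not tested.

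Without TMM factors the median of kidney against liver was -0.0572, against -0.91, that of all genes 0.91 against 0.06, and 8 called members turned direction: Etfb 0.33, Eci1 0.0694, Decr1 0.035, Acads 0.0048, Pex11a 0.11, Mgll 0.0763, Ech1 0.40 and Hadhb 0.40, as did Acadl, Ehhadh and Vnn1, which were not called.

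With 1 library left out in turn, the number of members called ranged from 4 to 6 in kidney after JQ1 treatment, 0 to 1 at kidney recovery, 0 to 2 in liver after JQ1 treatment, 0 to 7 at liver recovery, 8 to 15 between JQ1 treatment and JQ1 recovery kidneys, 0 to 9 between those livers, 0 to 2 for the difference between organs and 34 to 37 for kidney against liver. The medians ranged from 0.0814 to 0.16, -0.0889 to -0.0389, 0.0123 to 0.13, -0.18 to -0.11, 0.17 to 0.28, 0.12 to 0.28, -0.014 to 0.0855 and -0.94 to -0.79 in the same order. The 7 and the 9 were both reached without liver JQ1 recovery replicate 1, and the 15 without the kidney vehicle recovery library.

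Over all genes, the number called in kidney after JQ1 treatment was 709, against 1084 with no filter, 432 with length-scaled counts and 459 with the compared groups alone. At kidney recovery it was 1, against 182 with no filter, 112 with DESeq2, 13 with the compared groups alone, and 0 with voom, length-scaled counts or the block. In liver after JQ1 treatment it was 72, against 128 with no filter, 257 with DESeq2, 29 with voom, 37 with length-scaled counts, 368 with the compared groups alone, 41 with the block, 29 with vehicle of the same time only and 358 without the libraries with kidney RNA. At liver recovery it was 5, against 226 with no filter and 766 with DESeq2. Between JQ1 treatment and JQ1 recovery livers it was 334, against 609 with no filter, 1225 with DESeq2, 176 with voom, 165 with length-scaled counts, 33 with the compared groups alone, 222 with the block and 138 without the libraries with kidney RNA. For the difference between organs it was 30, against 123 with DESeq2, 3 with the block and 118 without those libraries. With 1 library left out, these counts ranged from 411 to 756 in kidney and 15 to 271 in liver after JQ1 treatment, 0 to 240 at kidney and 0 to 2107 at liver recovery, 675 to 1525 between JQ1 treatment and JQ1 recovery kidneys, 17 to 2154 between those livers and 12 to 80 for the difference between organs. The lowest liver counts after treatment and between treatment and recovery were without liver JQ1 treatment replicate 2, and the highest at liver recovery and between those livers without liver JQ1 recovery replicate 1.

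Same-numbered libraries did not deviate together (0 of 9 correlations above 0.1 in kidney, in liver and between organs). The labels do not state which libraries share a mouse, and no known pair was at hand for comparison. These correlations therefore cannot decide whether the numbers pair the samples. With the replicate block, 5 members were called in kidney after JQ1 treatment (Ehhadh in place of Mgll), where 554 of all genes were called.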
